A study of Mus musculus with 3 samples.

Results

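The mRNA decay regulators described here are 10 genes: the AU-rich element binders Zfp36, Zfp36l1 and Zfp36l2, the Regnase genes Zc3h12a and Zc3h12d, the Roquin genes Rc3h1 and Rc3h2, and Btg1, Btg2 and Tob1 of the BTG/TOB family. They were taken by name from a table of 23337 gene symbols, in which each had 1 row. All 10 passed the filter on low values (a mean of at least 1 FPKM, fragments scaled for transcript length and library size, a unit inferred from the values) and so were among the 9800 genes tested. RNA came from CD4+ T cells labelled Th1, the interferon gamma-producing helper subset, of wild-type C57/Bl6j mice aged 7 weeks. The tumour group was 1 library of cells isolated from B16-F10 tumours, a mouse melanoma line that grows in this strain. The lymphoid group was 2 libraries of cells from secondary lymphoid tissue, titled as spleen but with lymph nodes and draining nodes also named as their source. The series asks how the tumour environment acts on gene expression and splicing. The labels do not say how many animals gave each library or whether the lymphoid libraries came from separate animals, so a p-value here measures only how far these libraries vary, possibly for technical reasons.

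The members shorten the life of messenger RNA in different ways. ZFP36 proteins bind AU-rich elements in 3′ untranslated regions (3′ UTRs) and recruit the CCR4-NOT complex, which removes the poly(A) tail. Roquin proteins bind short stem-loops and also bring in deadenylases, and Regnase-1 cuts mRNAs at stem-loops with its own nuclease domain. BTG and TOB proteins connect poly(A) tails to the catalytic CCR4-NOT subunits CNOT7 and CNOT8. In T cells these brakes hold down mRNAs of cytokines and costimulatory receptors, and the paracaspase MALT1 removes Regnase-1 and Roquin proteins by cleavage after T cell receptor stimulation. RNA levels do not report on that cleavage.

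Depth, estimated from the smallest steps between low values, was about 3270000 fragments in the tumour library, against 11460000 and 15630000 in the lymphoid libraries. The median log2 change of the tested genes was -0.96 as deposited, so the typical gene had a smaller value in the tumour library. Values below are therefore scaled FPKM, divided by median-of-ratios factors of 0.58 for the tumour library, against 1.29 and 1.33 for the lymphoid libraries, after which the median was -0.01. In bulk RNA, fewer cells of a type and less RNA per cell cannot be told apart. Changes are differences of log2(scaled FPKM + 1), tumour minus lymphoid, a scale that understates the change of low genes. Tests are limma with Benjamini-Hochberg adjustment over all 9800 genes, and a gene is called at an adjusted p under 0.05. The spread comes from the lymphoid libraries alone, with 1 residual degree of freedom, and the single tumour library is assumed to vary like them. A second version of the test adds the estimated counting error of the tumour library.

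Among the decay regulators, Zc3h12a, which encodes Regnase-1, was the one gene that rose. It was about 2.5 times as high in the tumour library as in the lymphoid ones. That was 1 higher and 0 lower calls among 10 members, where limma called 12.7% of all tested genes higher and 9.17% lower, 21.9% in all, so the count is near the background. Zc3h12a was also the 1 member at least 2-fold higher than each lymphoid library and 0 were at least 2-fold lower, against 8.76% and 6.32% of all tested genes. At an unadjusted p under 0.05, 5 of the 10 members were higher and 0 lower, against 1941 higher and 1685 lower of the 9800 tested genes. With counting error added, 0 members were called, against a background of 3.62% higher and 0.329% lower. The median log2 change of the members was 0.31. The tumour value lay above both lymphoid values for 7 members, below both for 2 and between them for 1, while 41.3% of all tested genes lay above and 42.6% below.

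**Figure D1:**
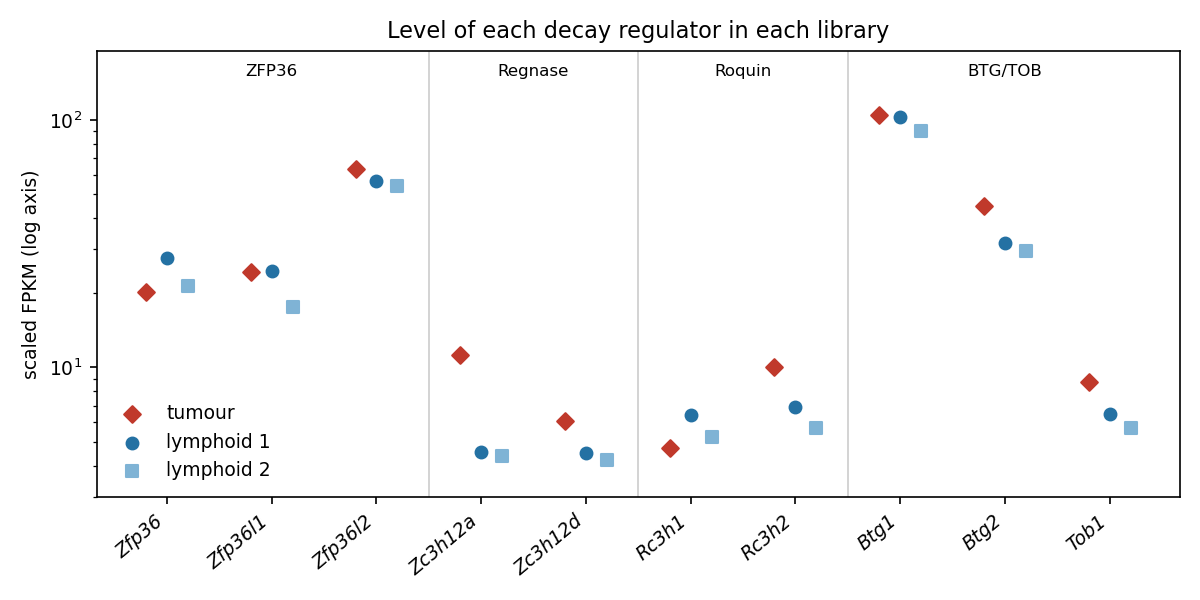
Scaled FPKM (log axis) of each decay regulator in the tumour library (red diamonds) and in lymphoid libraries 1 and 2 (blue circles and squares), by family. Zc3h12a lies at 11.2 in the tumour library, against 4.54 and 4.38 in the lymphoid libraries, while Btg1, Zfp36l2 and Btg2 keep the highest levels in all 3 libraries.

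The order of the levels was alike in the 3 libraries at the top. Btg1, Zfp36l2 and Btg2 were the most abundant members in each, and Zfp36 and Zfp36l1, which followed, lay within 1 lymphoid SD of each other in the lymphoid libraries. The other 5 members lay between 4.71 and 11.2 scaled FPKM in the tumour library, and between 4.24 and 6.92 in the lymphoid libraries. Within that lower group the order differed. Zc3h12a ranked 6 of 10 in the tumour library and 9 of 10 in both lymphoid libraries. Rc3h1 ranked 10 in the tumour library and 8 in both lymphoid libraries.

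Zc3h12a (ENSMUSG00000042677.7, chromosome 4, 125118423 to 125127840, minus strand, GRCm38) had 11.2 scaled FPKM in the tumour library, against 4.54 and 4.38 in the lymphoid libraries (4.46 ± 0.113, SD, n = 2). The tumour value was well outside the narrow lymphoid range, at 2.46 and 2.55 times the single lymphoid values. The log2 change was 1.16 (SE 0.15, 95% interval 0.79 to 1.53, limma adjusted p = 0.00600). It rested on about 58 tumour fragments, against about 185 and 251 lymphoid ones, and with counting error added the interval was 0.59 to 1.73 and the call was lost (limma adjusted p = 0.0646). By size of log2 change the gene ranked 568 of the 9800 tested. As deposited, it had 6.48 FPKM in the tumour library, against 5.87 and 5.84 in the lymphoid libraries, a log2 change of 0.13 that was not called (limma adjusted p = 0.454). The call is thus one relative to the median gene, which was lower by 0.96 on the same deposited scale. Every other member had a smaller deposited value in the tumour library than in either lymphoid library. On deposited values limma called 0 members higher and 8 lower, against 4.74% and 77.8% of all tested genes.

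The paralogue Zc3h12d, which encodes Regnase-4 (chromosome 10, 7832470 to 7870396), had 6.05 scaled FPKM in the tumour library, against 4.51 and 4.24 in the lymphoid libraries. The tumour value was the highest of the 3, and the log2 change of 0.39 (95% interval 0.02 to 0.76) was not called (limma adjusted p = 0.118). The ratio of Zc3h12a to Zc3h12d within a library does not depend on scaling. It was 1.85 in the tumour library (exact 95% interval 1.23 to 2.75), against 1.01 (0.83 to 1.22) and 1.03 (0.87 to 1.21) in the lymphoid libraries. These intervals cover counting error only and rest on estimated fragments. This pair of genes and the Roquin pair below were chosen after their values were seen. Set against the T cell receptor gene Cd3e in the same way, Zc3h12a stood at 0.101 in the tumour library, against 0.0360 and 0.0413 in the lymphoid libraries. Over Cd4 the contrast was smaller, at 0.151 in the tumour library, against 0.0669 and 0.0738.

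The Zc3h12a mRNA is itself a reported target of Regnase-1 and Roquin, so its candidate stem-loops are shown. A stem of 5 pairs without G-T pairs around a loop of pyrimidine, purine and pyrimidine was searched in the 3′ UTR of the longest GENCODE M21 coding transcript of each gene. The loop is in capitals.
Zc3h12a: atacaCATtgtat
Zc3h12a: ggcacCATgtgcc
Zc3h12a: ttaaaTATtttaa
They lie on chromosome 4, minus strand, at chr4:125119070-125119082, chr4:125118888-125118900 and chr4:125118664-125118676. The Zc3h12a 3′ UTR of 856 bases held 3 such stem-loops, and 17.5% of the 1332 tested 3′ UTRs within 25% of its length held at least 1. With G-T pairs allowed it held 4, and 58.6% of those 3′ UTRs held at least 1. A match in the letters is a description and not a shown binding site.

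The promoter of Zc3h12a is shown because this was the one member called. RefSeq's table for GRCm38.p6 gave a promoter for 9 of the 10 members. The window of 250 bases before to 50 after the start of Zc3h12a, chr4:125127832-125128131 on the minus strand, reads as follows, with GC boxes (GGGCGG on either strand) in capitals.
Zc3h12a: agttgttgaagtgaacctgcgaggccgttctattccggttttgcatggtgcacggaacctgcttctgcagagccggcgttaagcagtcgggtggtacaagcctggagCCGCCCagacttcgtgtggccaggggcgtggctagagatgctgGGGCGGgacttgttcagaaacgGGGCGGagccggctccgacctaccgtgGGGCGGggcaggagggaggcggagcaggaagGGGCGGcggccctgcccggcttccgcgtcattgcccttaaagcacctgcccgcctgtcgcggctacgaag
It held 5 GC boxes, a motif found in 7 of the 9 member promoters and in 35.7% of all 32851 promoters in the table. This share and those below cover every promoter in the table, and shares among promoters of tested genes were not counted. The NF-κB consensus (both strands) was in 0 of the 9 member promoters, against 8.46% of all promoters. The serum response CArG box was in 1, that of Zfp36, against 1.63% of all. The cyclic AMP response element TGACGTCA was in 1, that of Btg2, against 1.79% of all.

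The Roquin genes lay on opposite sides of their lymphoid levels, and neither passed the test. Rc3h2, which encodes Roquin-2 (chromosome 2, 37370069 to 37422903), had 10.05 scaled FPKM in the tumour library, against 6.92 and 5.68 in the lymphoid libraries. Rc3h1, which encodes Roquin-1 (chromosome 1, 160906418 to 160974978), had 4.71 scaled FPKM in the tumour library, against 6.43 and 5.25. The tumour library was thus the highest of the 3 for Rc3h2 and the lowest for Rc3h1. Neither was called: the log2 change of Rc3h2 was 0.60 (95% interval 0.16 to 1.04, limma adjusted p = 0.0648) and that of Rc3h1 was -0.25 (95% interval -0.69 to 0.18, limma adjusted p = 0.340). The ratio of Rc3h2 to Rc3h1 was 2.13 in the tumour library (exact 95% interval 1.65 to 2.76), against 1.08 (0.984 to 1.177) and 1.08 (0.99 to 1.17) in the lymphoid libraries. It rested on about 170 and 98 tumour fragments. With 1 tumour library the difference between the genes has no replicate check. Rc3h2 has 10 annotated transcripts and Rc3h1 has 3, and one value per gene does not show which were used. The small nucleolar RNA Snord90 lies inside Rc3h2 on the same strand and was listed at 421.3 FPKM as deposited in the tumour library, against 6766 and 8608 in the lymphoid libraries. Its part in the Rc3h2 values was not tested.

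**Figure D2:**
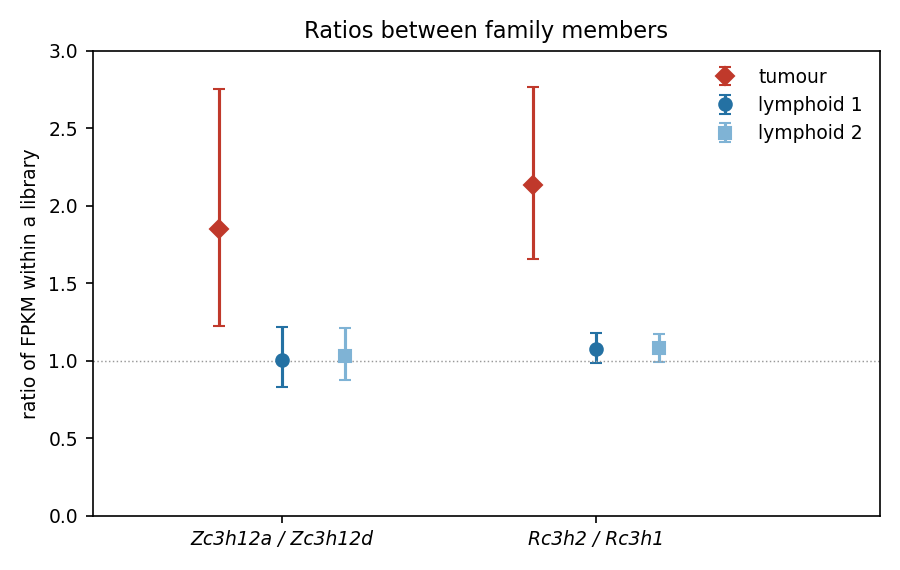
Ratio of FPKM between the members of the Regnase pair (left) and the Roquin pair (right) within the tumour library (red diamonds) and lymphoid libraries 1 and 2 (blue), with exact 95% intervals for counting error. Tumour ratios are 1.85 and 2.13, and the 4 lymphoid ratios lie between 1.01 and 1.08.

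Both Roquin mRNAs hold the same 13-base stem-loop, whose core TTCTGTGAA is the sequence of the constitutive decay element, the stem-loop first described in Tnf mRNA. It is printed beside the one in Tnf and those in the Roquin targets Icos and Nfkbid, with the loop in capitals.
Rc3h1: acttcTGTgaagt
Rc3h2: acttcTGTgaagt
Tnf: ttttcTGTgaaaa
Icos: atttcTGTgaaat
Nfkbid: atttcTGTgaaat
Nfkbid: gtttcTGTgaaac
The core was in the 3′ UTR of 2 of the 10 members and in 2.70% of 8628 tested genes with a 3′ UTR. Among 3′ UTRs within 25% of the long Rc3h1 and Rc3h2 ones, the shares were 11.03% and 7.04%. The Rc3h1 copy shown lies on chromosome 1 at 160971661 to 160971673 and the Rc3h2 copy on chromosome 2 at 37373810 to 37373822.

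None of the ZFP36 genes was called. Zfp36l2 (chromosome 17, 84183931 to 84187947), the most abundant of the 3, had 63.5 scaled FPKM in the tumour library, against 56.7 and 53.8 in the lymphoid libraries. Zfp36l1 (chromosome 12, 80107754 to 80113013) had 24.3 in the tumour library, against 24.4 and 17.5. Zfp36 itself, which encodes tristetraprolin (chromosome 7, 28376784 to 28380253), had 20.2 in the tumour library, against 27.6 and 21.4. The tumour value of Zfp36l1 lay inside the lymphoid range and that of Zfp36 just below it. That of Zfp36l2 lay above its range by more than the gap between the lymphoid values. Their log2 changes were 0.20 (95% interval -0.27 to 0.66) for Zfp36l2, 0.22 (-0.38 to 0.82) for Zfp36l1 and -0.25 (-0.79 to 0.28) for Zfp36, with limma adjusted p from 0.438 to 0.553. The first intervals reach 0.66 and 0.82 upward, so a rise of that size is within the error. Antisense or opposite-strand genes without a row of their own overlap each of these genes, and reads of Zfp36l1 and Btg1 could also come from annotated copies on chromosome X (Zfp36l1-ps, Btg1-ps1 and Btg1-ps2), so their values are uncertain to that extent. Zfp36l2 made up 58.8% of the summed FPKM of the family in the tumour library, against 52.2% and 58.1% in the lymphoid libraries, and Zfp36 18.7%, against 25.4% and 23.0%.

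All 3 ZFP36 mRNAs carry in their own 3′ UTR the nonamer TTATTTATT that these proteins bind, shown here in capitals with its flanks.
Zfp36: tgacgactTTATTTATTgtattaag
Zfp36l1: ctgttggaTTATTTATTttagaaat
Zfp36l2: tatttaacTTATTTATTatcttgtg
Rc3h1: tttactcaTTATTTATTgagatgag
Rc3h2: aagacattTTATTTATTttactctg
The nonamer was found once in each of these 5 members and in none of the other 5, against 8.26% of the 8628 tested genes with a 3′ UTR. Among 3′ UTRs of like length the share was 4.70% for Zfp36, 8.77% for Zfp36l1 and 8.68% for Zfp36l2. For the longer Roquin 3′ UTRs it was 26.6% for Rc3h1 and 21.1% for Rc3h2. The 5 members without the nonamer (Zc3h12a, Zc3h12d, Btg1, Btg2 and Tob1) all lay above both lymphoid values, Btg1 by less than the gap between them. So did 41.3% of all tested genes, and the share among those without the nonamer was not counted. Of the 5 with it, Zfp36l2 and Rc3h2 lay above, Zfp36 and Rc3h1 below and Zfp36l1 between them. This split was seen in the values and was not tested.

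The BTG/TOB genes lay a little higher in the tumour library without passing the test. Btg1, an antiproliferative gene kept high in quiescent T cells (chromosome 10, 96617006 to 96622809), was the most abundant member, with 104.6 scaled FPKM in the tumour library, against 102.8 and 89.9 in the lymphoid libraries. Its log2 change of 0.12 had a 95% interval of -0.39 to 0.63 (limma adjusted p = 0.712). Btg2, a target of p53 and an early response gene (chromosome 1, 134075170 to 134079120), had 45.0 in the tumour library, against 31.8 and 29.6, a log2 change of 0.54 (95% interval 0.09 to 0.99, limma adjusted p = 0.0894). Tob1, described as a brake on T cell activation (chromosome 11, 94211454 to 94215495), had 8.75 in the tumour library, against 6.46 and 5.68, a log2 change of 0.47 (95% interval 0.06 to 0.87, limma adjusted p = 0.0975). For all 3 the tumour value was above both lymphoid values, for Btg1 by less than the gap between them. Tob1 rested on about 38 tumour fragments, and with counting error added its interval was -0.20 to 1.13.

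**Figure D3:**
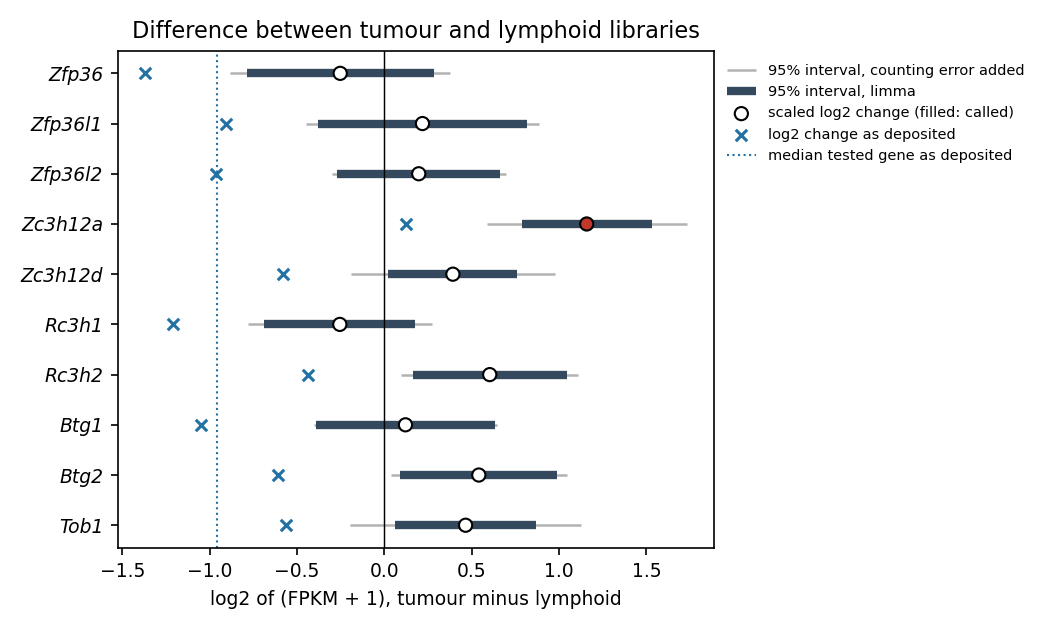
Difference of log2(FPKM + 1) between the tumour library and the lymphoid libraries for each member, after scaling (circles, with the 95% interval of limma as a thick bar and that with counting error added as a thin one) and as deposited (crosses). Zc3h12a, at 1.16, is the one called gene, and as deposited it is the one member not below 0, with the median tested gene at -0.96 (dotted).

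The other genes of these families were mostly near the limit of detection. Of 7 further members of the families, 2 were tested. Tob2, the paralogue of Tob1, rose to 10.9 scaled FPKM in the tumour library, against 6.21 and 6.20 in the lymphoid libraries, a log2 change of 0.72 (limma adjusted p = 0.0263). With counting error added its call was lost (limma adjusted p = 0.176). N4bp1, which encodes an RNase related to the Regnases, had 3.72 in the tumour library, against 2.99 and 3.04, and was not called. Zc3h12b, Zc3h12c, Zfp36l3 and Btg4 lay at or under 1.00 in every library. Btg3 differed between the lymphoid libraries, at 0.00084 and 1.51 (about 95 fragments), with 0.0066 in the tumour library.

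Some genes of the enzymes that these adaptors recruit fell, while others lay above their lymphoid levels without a call. Of 16 tested deadenylase genes, 4 fell and 0 rose by limma (7 lower and 1 higher of 16 at an unadjusted p under 0.05, against 1685 lower and 1941 higher of 9800), with a median log2 change of -0.25, against -0.01 for all tested genes. Cnot7, a catalytic subunit that BTG and TOB proteins bind, fell to 2.47 scaled FPKM in the tumour library, against 8.10 and 6.77 in the lymphoid libraries (log2 change -1.28, limma adjusted p = 0.00651). Its paralogue Cnot8 fell to 4.68 in the tumour library, against 11.4 and 10.8 (log2 change -1.09, limma adjusted p = 0.00830). Both tumour values were far below the lymphoid range. Cnot10 and Cnot11, non-catalytic subunits, fell by 0.80 and 0.73 on the log2 scale. These 4 genes rested on 11.9 to 18.6 tumour fragments, and with the counting error included none stayed called (limma adjusted p from 0.130 to 0.316). The other catalytic pair was not called, with Cnot6 at 16.1 in the tumour library, against 12.8 and 9.70, and Cnot6l at 22.4, against 30.03 and 24.9. Cnot1, the scaffold, had 15.9 in the tumour library, against 20.6 and 17.1, and was not called. Cnot7 overlaps Zdhhc2 and Vps37a on the opposite strand, and whether the counting used strand is not given in the sources used here.

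**Figure D4:**
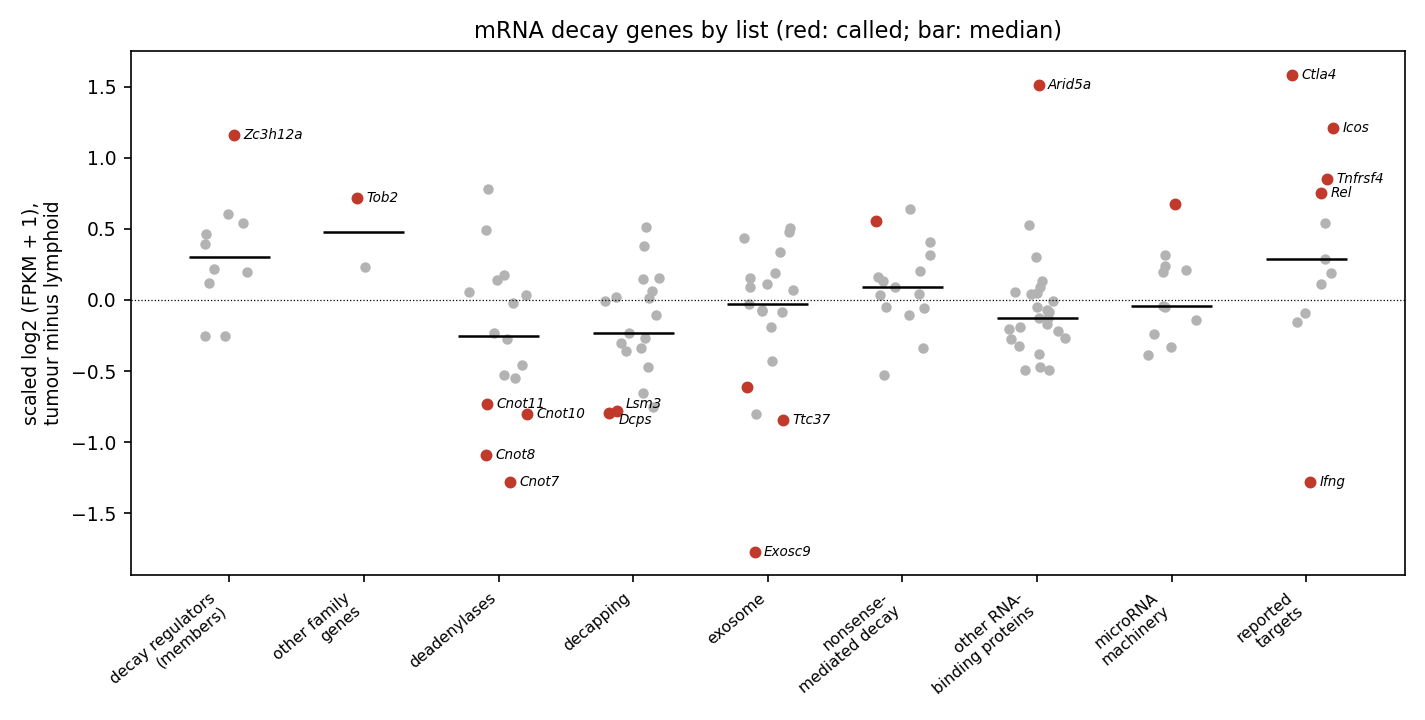
Difference of log2(scaled FPKM + 1), tumour minus lymphoid, for each tested gene of the decay regulators, of the other lists of mRNA decay genes and of reported targets. Red points are called, grey points are not, and bars are medians; Arid5a, Ctla4, Icos and Zc3h12a lie above 1, and Ifng, Cnot7, Cnot8 and Exosc9 below -1.

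Calls among downstream decay genes are set against 12.7% higher and 9.17% lower of all tested genes. At an unadjusted p under 0.05, 1941 of 9800 were higher and 1685 lower. Of 19 decapping genes 2 fell, Dcps and Lsm3 (log2 changes -0.79 and -0.78), and 0 rose by limma (5 and 1 at an unadjusted p under 0.05). Of 19 exosome genes 3 fell, with Exosc9, a core subunit, at 1.32 scaled FPKM in the tumour library, against 6.25 and 7.67, on about 4 tumour fragments. Ttc37 (log2 change -0.85) and Exosc5 (-0.61) were the others, and 0 rose (5 lower and 3 higher unadjusted). Of 15 nonsense-mediated decay genes 1 rose (Smg8, 0.56) and 0 fell, and of 11 microRNA machinery genes 1 rose (Tarbp2, 0.67) and 0 fell (in each, 1 lower unadjusted). With counting error added 0 calls of these 4 lists were left. The medians were -0.23 for decapping, -0.03 for the exosome, 0.09 for nonsense-mediated decay and -0.04 for the microRNA machinery.

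Among 25 other tested RNA-binding protein genes, Arid5a alone was called. Arid5a protein binds stem-loops in target mRNAs such as Il6 and is known to oppose Regnase-1 there. The gene rose to 16.3 scaled FPKM in the tumour library, against 4.97 and 5.20 in the lymphoid libraries, so that the tumour value was more than 3 times either. The log2 change was 1.51 (limma adjusted p = 0.00277), on about 170 tumour fragments, and the call held with counting error added (limma adjusted p = 0.0154). Within a library the ratio of Arid5a to Zc3h12a was 1.46 in the tumour library, against 1.09 and 1.19 in the lymphoid libraries. In the list 0 fell by limma, with 3 lower and 2 higher at an unadjusted p under 0.05, and the median was -0.12.

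Reported targets of the members were measured in the same libraries. Of 19 on the list 11 were tested, with a median of 0.29. By limma 4 rose and 1 fell, against 12.7% higher and 9.17% lower of all tested genes. At an unadjusted p under 0.05, 5 were higher and 1 lower, against 1941 and 1685 of 9800. With counting error added 1 stayed higher, against 3.62% of all genes, and 0 lower. Ctla4, an inhibitory receptor, rose to 31.6 scaled FPKM in the tumour library, against 11.5 and 8.40 in the lymphoid libraries (log2 change 1.59, limma adjusted p = 0.00812). Icos, a costimulatory receptor and the classic Roquin target, rose to 41.0 in the tumour library, against 19.1 and 15.5 (log2 change 1.21, limma adjusted p = 0.0133, and 0.0501 with counting error added). Tnfrsf4, which encodes OX40, rose to 10.5, against 5.37 and 5.36, and the NF-κB subunit gene Rel rose to 10.9, against 6.78 and 5.49. Both are reported targets of Regnase-1, and neither call was left with counting error added (limma adjusted p = 0.281 for Tnfrsf4 and 0.163 for Rel). Ifng, whose 3′ UTR held 4 copies of the AU-rich heptamer TATTTAT, fell to 4.53, against 12.9 and 12.0 (log2 change -1.28, limma adjusted p = 0.00535), on about 10 tumour fragments, and lost its call with that error included (limma adjusted p = 0.205). Tnf, with 8 copies of that heptamer, had 10.3 in the tumour library, against 8.89 and 8.82, and was not called (limma adjusted p = 0.416). Nfkbid (8.95, against 6.99 and 7.32) and Nfkbiz (13.4, against 9.03 and 8.83) were not called. Il6, Il10 and Il3 were listed at 0 in the tumour library and at or under 0.0470 in the lymphoid libraries.

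Stem-loops of the kind searched in Zc3h12a also stand in the targets that rose. Only those with a TAT or CAT loop are printed, with the loop in capitals.
Tnfrsf4: tatgcTATgcata
Rel: atggcTATgccat
Rel: ttaccTATggtaa
Icos: tttccTATggaaa
Ctla4: ttttcCATgaaaa
They were also present in genes that were not called, such as Nfkbiz. Its 3′ UTR held 2 in 1355 bases, both with a TAT loop, of which the first is printed. Of tested 3′ UTRs of like length, 23.2% held at least 1.
Nfkbiz: gtttcTATgaaac
The short Tnfrsf4 3′ UTR of 180 bases held 1, against 6.41% of 468 tested 3′ UTRs of like length (20.5% with G-T pairs allowed). For Rel, with 3 in 5418 bases, the share was 61.1%. For Icos, with 3 in 2606 bases, it was 38.3%, and for Ctla4, with 1 in 1115 bases, 21.4%.

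Malt1, which encodes the paracaspase, had 15.1 scaled FPKM in the tumour library, against 14.0 and 12.3 in the lymphoid libraries, and was not called (limma adjusted p = 0.486). Of 23 tested immediate-early genes 5 rose and 0 fell (7 and 1 unadjusted), against 12.7% higher and 9.17% lower of all tested genes. The largest rises were Fosl2 (log2 change 4.495), Nr4a1 (3.21) and Nr4a3 (2.66), all left with counting error added. The rise was not shared by the whole list, whose median was 0.26. Jun (25.1, against 41.8 and 67.5) and Fos (14.1, against 18.4 and 26.6) lay below both lymphoid values without a call. Fosb, Dusp1 and Egr1 were also not called (log2 changes -0.03, -0.10 and 0.17). Immediate-early genes can be raised by tissue dissociation as well as by stimulation, and their part in the Zc3h12a value was not tested. Zfp36 and Btg2, often counted among early response genes, were not called. Of 11 quiescence factor genes 0 were called (2 higher and 1 lower unadjusted), with Tcf7 the most abundant at 73.6, against 96.7 and 86.2.

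For the gene with the largest rise, Zc3h12a, the 3 genes with the nearest profile over the 3 libraries were Ccdc82, Rgs1 and Clp1, at Euclidean distances of 0.0088, 0.026 and 0.052 on the centred log2 scale among 4708 genes. Rgs1, a regulator of chemokine receptor signalling, had 85.3 scaled FPKM in the tumour library, against 39.1 and 37.0, and Ccdc82 had 72.4, against 32.1 and 31.2. For Rc3h1, the member with the lowest change, they were Scamp3, Ppp2r1a and Anxa7, at distances of 0.011 to 0.017, none of them called. With 3 libraries a near profile is easily met.

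After scaling, T cell marker levels were alike in the libraries. The 9 T cell marker genes summed to 698 scaled FPKM in the tumour library, against 728 and 733 in the lymphoid libraries. Of the 9, 0 were called (0 at an unadjusted p under 0.05). The scaling itself sets the typical gene near no change. As deposited, the median log2 change of the T cell genes was -1.10, against -0.96 for all tested genes. The marker sums of other cell types lay below that of the T cell genes. Most of them were higher in the tumour library, as was the background given below. The 13 myeloid genes, a cell type in which Zc3h12a and Zfp36 are also active, summed to 10.6 in the tumour library, against 1.62 and 1.42, with 5 of them at 0 in the tumour library and C1qb, S100a8, S100a9 and Mrc1 at 0 in all 3. Itgam, which some T cells also express, made up 3.95 of the tumour sum and was called higher. The 2 CD8 genes summed to 5.27, against 0.558 and 0.814, of which Cd8b1 was 4.77. Cd8b1 was called higher (log2 change 1.82, limma adjusted p = 0.00255, and 0.0721 with counting error added), on about 13 tumour fragments. The 6 dendritic cell genes summed to 3.52, against 1.21 and 1.15. The 9 melanocyte genes summed to 3.35, against 1.35 and 1.52, with Mlana and Gpr143 at 0 in all 3, and the 6 B cell genes to 1.35, against 0.787 and 0.530. The sums for NK (19.2, against 26.2 and 23.7), endothelial (9.42, against 9.76 and 8.90), erythroid (1.42, against 1.67 and 1.38) and fibroblast genes (0.375, against 0.0522 and 0.190) lay lower in the tumour library for NK genes, between the lymphoid values for endothelial and erythroid genes and above both for fibroblast genes, and Hba-a1 was called lower. As a measure of background, 1440 odorant and vomeronasal receptor genes averaged 0.662 scaled FPKM per gene in the tumour library, against 0.0583 and 0.1005. Taken over the genes of each list, that background exceeds the tumour sums of the dendritic, melanocyte, B cell, fibroblast and erythroid genes. The tumour sums of the NK, endothelial, CD8 and, with Itgam included, myeloid genes were above it. The part of other cells and of this background in the Zc3h12a value was not tested. With the background subtracted in each library the log2 change of Zc3h12a was 1.253.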

How the data were processed

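Total RNA depleted of ribosomal RNA was sequenced as stranded paired-end libraries (1 tumour, 2 lymphoid), per the labels' protocols. The values deposited by the authors were taken as FPKM. The unit is inferred from decimals and unequal library sums and is not stated, and the submitters' processing notes list mm10 with kallisto and DESeq2, giving neither version nor use. All 3 value columns were assigned to samples. Where a symbol had more than 1 row (252 symbols), the most abundant row was used. Of 23337 symbols, 21705 matched GENCODE M21 (GRCm38) by symbol and 1270 by an older one. One fragment's value was taken as the product of FPKM and length shared, within 3%, by the most single-transcript genes of at least 1000 nt under 2 FPKM. Size factors used the tested genes with values above 0 in every library. Fits used limma 3.58.1 (R 4.3.3) on log2(FPKM + 1), the prior variance following a trend in mean level, and were checked on simulated data. The design's test for FPKM was used unchanged. Named genes were the members, in each list up to 3 called genes per direction by size (failing any, the gene with the highest level), and the nearest profiles. Other genes, such as Cnot11, Cnot1, Cnot6, Cnot6l, Malt1, N4bp1, Rel, the uncalled targets and the uncalled immediate-early genes, were named after their values were seen. The list of genes acting on these regulators is not reported here as a whole. The members and lists were chosen with earlier results of these data known. Promoter sequences are from RefSeq (GRCm38.p6) and 3′ UTRs from GENCODE M21. No sequence of the encoded proteins was used here. Other scalings, pseudocounts, filters and left-out libraries were tried. The depth gives counting error only.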

Additional observations from a re-analysis of the deposited data

How the results depend on the processing

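The result for Zc3h12a kept its direction in every setting run and its call in all but values as deposited (log2 change 0.13) and added counting error (1.16, limma adjusted p = 0.0646). Without one lymphoid replicate its change was 1.14 to 1.18 with no test, and counts of calls could not be made, since no residual degrees of freedom were left. As deposited, 0 members were called higher and 8 lower (all genes: 465 and 7620), and 0 members passed 2-fold higher and 2 lower. There the direction turned for Zfp36l1 (-0.91), Zfp36l2 (-0.96), Zc3h12d (-0.58), Rc3h2 (-0.44), Btg1 (-1.05), Btg2 (-0.61) and Tob1 (-0.56). By library totals 8 members were called higher (all genes: 4370 higher, 279 lower), and Zfp36 (0.49) and Rc3h1 (0.40) turned. Of the members, 5 passed 2-fold higher under that scaling. For it and for values as deposited, the share of all genes past 2-fold was not counted. With size factors over all symbols, chosen after seeing the data, Zfp36l1 (-0.061), Zfp36l2 (-0.090) and Btg1 (-0.17) turned, and 1926 genes were lower. With receptor background subtracted, also chosen later, 3 members were higher, Rc3h2 (0.69) and Btg2 (0.69) joining Zc3h12a. Of all genes 1230 were higher and 1324 lower in that setting. Counting error left 0 members and 352 higher and 32 lower genes. With no filter 7364 genes were higher, and a stricter floor of 5 FPKM left 211 higher and 191 lower. Without lymphoid replicate 2 the uncalled change of Zfp36l1 was -0.010. The causes were not tested. No paired analysis was possible with 1 tumour library, which the labels do not tie to either lymphoid library.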
